A study of Homo sapiens with 20 samples.

Results

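The region described here is the 1.1 Mb of human chromosome 6 that holds the genes EDN1 and PHACTR1, from 12200000 to 13300000 on hg19. Its members were all pairs of 5 kb anchors in the Hi-C loop lists of 4 glioblastoma (GBM) cell lines with either anchor overlapping that interval, whatever their strength. There were 1093 such pairs among the 572000 distinct pairs of the 4 lists, and 496 of them had both anchors inside the interval. By cell line, 672 members were listed for H4 and 746 for H4 88-1, against 451 for 42MGBA and 465 for 42MGBA 53-1, each out of 300000 listed pairs.

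The parental lines H4 and 42MGBA were derived from human GBM, each carries its own naturally occurring truncating STAG2 mutation, and both are labelled STAG2-mutant. Each has 1 derivative, named H4 88-1 or 42MGBA 53-1, in which gene editing had restored STAG2, and both are labelled STAG2-WT; they are called STAG2-corrected below. No treatment is named for the Hi-C cultures, the loop lists cannot show the STAG2 genotype, and no edited line with a still mutant STAG2 is among them, so that correction and the history of a single derivative cannot be told apart. Hi-C was performed with the Arima Hi-C+ kit on 2 biological replicates per line, 8 libraries in all, and the study asked how STAG2 correction alters single chromatin loops. The authors pooled the replicates and kept the strongest pairs, each with a loop strength, which is the bias-corrected and denoised contact signal and has no unit. The lowest listed strength was 4.14 for H4 and 4.44 for H4 88-1, against 4.49 for 42MGBA and 4.28 for 42MGBA 53-1. A pair near these values can be listed in one line and unlisted in another at the same strength. With 1 list per line and no read counts, neither depth per pair nor replicate error could be given, no test was possible, and each difference below describes these 4 lists without a replicate check.

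STAG2 is a subunit of cohesin, the ring-shaped complex that draws chromatin into loops until it meets a barrier, most often the zinc finger protein CTCF bound in a particular orientation. EDN1 encodes endothelin-1, a secreted peptide that constricts blood vessels and acts on neighbouring cells through the receptors EDNRA and EDNRB after it has been cut from a precursor by the converting enzymes ECE1 and ECE2. PHACTR1 encodes a regulator of actin and of protein phosphatase 1, and the interval around both genes is known from genetic studies of vascular disease, in which intronic DNA of PHACTR1 has been discussed as a distant regulator of EDN1.

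EDN1 (ENSG00000078401.7_6) occupies chr6:12290594-12297427 on the plus strand and has 1 annotated start site. PHACTR1 (ENSG00000112137.19_14) occupies chr6:12716544-13290678 on the same strand and has 26 annotated start sites between 12716544 and 13278234. Upstream of EDN1 lie HIVEP1, ADTRP and TMEM170B, and past the end of PHACTR1 lies TBC1D7 on the minus strand. The 250 bases before the EDN1 start site, chr6:12290344-12290593, are shown because they lie in the anchor that holds the start site. Capitals mark TATAAA, 31 bases upstream of the start site, and AGATAA, the letters of a GATA site, read on the minus strand 136 bases upstream.

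EDN1 upstream: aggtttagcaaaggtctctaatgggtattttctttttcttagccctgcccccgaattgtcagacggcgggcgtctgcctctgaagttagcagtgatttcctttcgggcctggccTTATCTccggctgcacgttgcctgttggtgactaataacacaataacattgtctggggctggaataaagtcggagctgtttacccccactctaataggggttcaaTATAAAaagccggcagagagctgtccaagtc

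On either strand, TATAAA occurs in 9.26% and AGATAA in 6.56% of the 250-base windows before 19881 protein-coding genes, and TGANTCA, which occurs in 4.69% of them, was not found in this window. A motif match describes the letters only.

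The CTCF core consensus was searched on both strands in every anchor, since the orientation of CTCF sites is known to set where loops end. It was found in 4 of the 152 distinct anchors of the region, or 2.63%, against 5048 of 128561 anchors of all lists, or 3.93%. The matches are printed in the direction of the motif, with its 12 bases in capitals and 10 bases on each side.

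TMEM170B to ADTRP interval, plus strand, chr6:11655973-11656004: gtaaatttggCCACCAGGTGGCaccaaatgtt

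TMEM170B to ADTRP interval, plus strand, chr6:11700555-11700586: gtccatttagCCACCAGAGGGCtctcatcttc

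44.1 kb upstream of EDN1, minus strand, chr6:12246460-12246491: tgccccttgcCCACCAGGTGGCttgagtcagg

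TBC1D7 promoter anchor, minus strand, chr6:13332187-13332218: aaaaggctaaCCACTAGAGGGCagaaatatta

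Both plus-strand matches lie upstream of both minus-strand matches, so that each of the former points towards each of the latter. The anchors of the matches 635 and 44.1 kb upstream of the EDN1 start site, chr6:11653289-11658178 and chr6:12243276-12248265, were joined at a strength of 9.54 for H4 and 9.18 for H4 88-1, against 9.04 for 42MGBA and 4.99 for 42MGBA 53-1. The last value stands apart from the other 3, and the pair is among the losses described below. The anchors of the matches 590 and 44.1 kb upstream were joined at 6.17 in H4 and 5.19 in 42MGBA and were not listed in either STAG2-corrected line, and neither plus-strand anchor was joined to the TBC1D7 anchor in any list. No EDN1 promoter anchor, no anchor in PHACTR1 and not the intergenic anchor at 312 kb held a match.

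Each listed pair is 1 pixel of a contact map, so that a visible loop appears as a block of neighbouring pixels. Joining pairs whose anchors both lay within 10 kb of each other gave 16 groups, numbered by their size. Pixels of a group share reads and smoothing and are not independent. A peak is a pair that was stronger than every other listed pair with both anchors within 20 kb. By that measure there were 11 peaks for H4 and 13 for H4 88-1, against 12 for 42MGBA and 21 for 42MGBA 53-1, of which 7, 9, 10 and 4 respectively had a strength above 7.

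**Figure D1:**
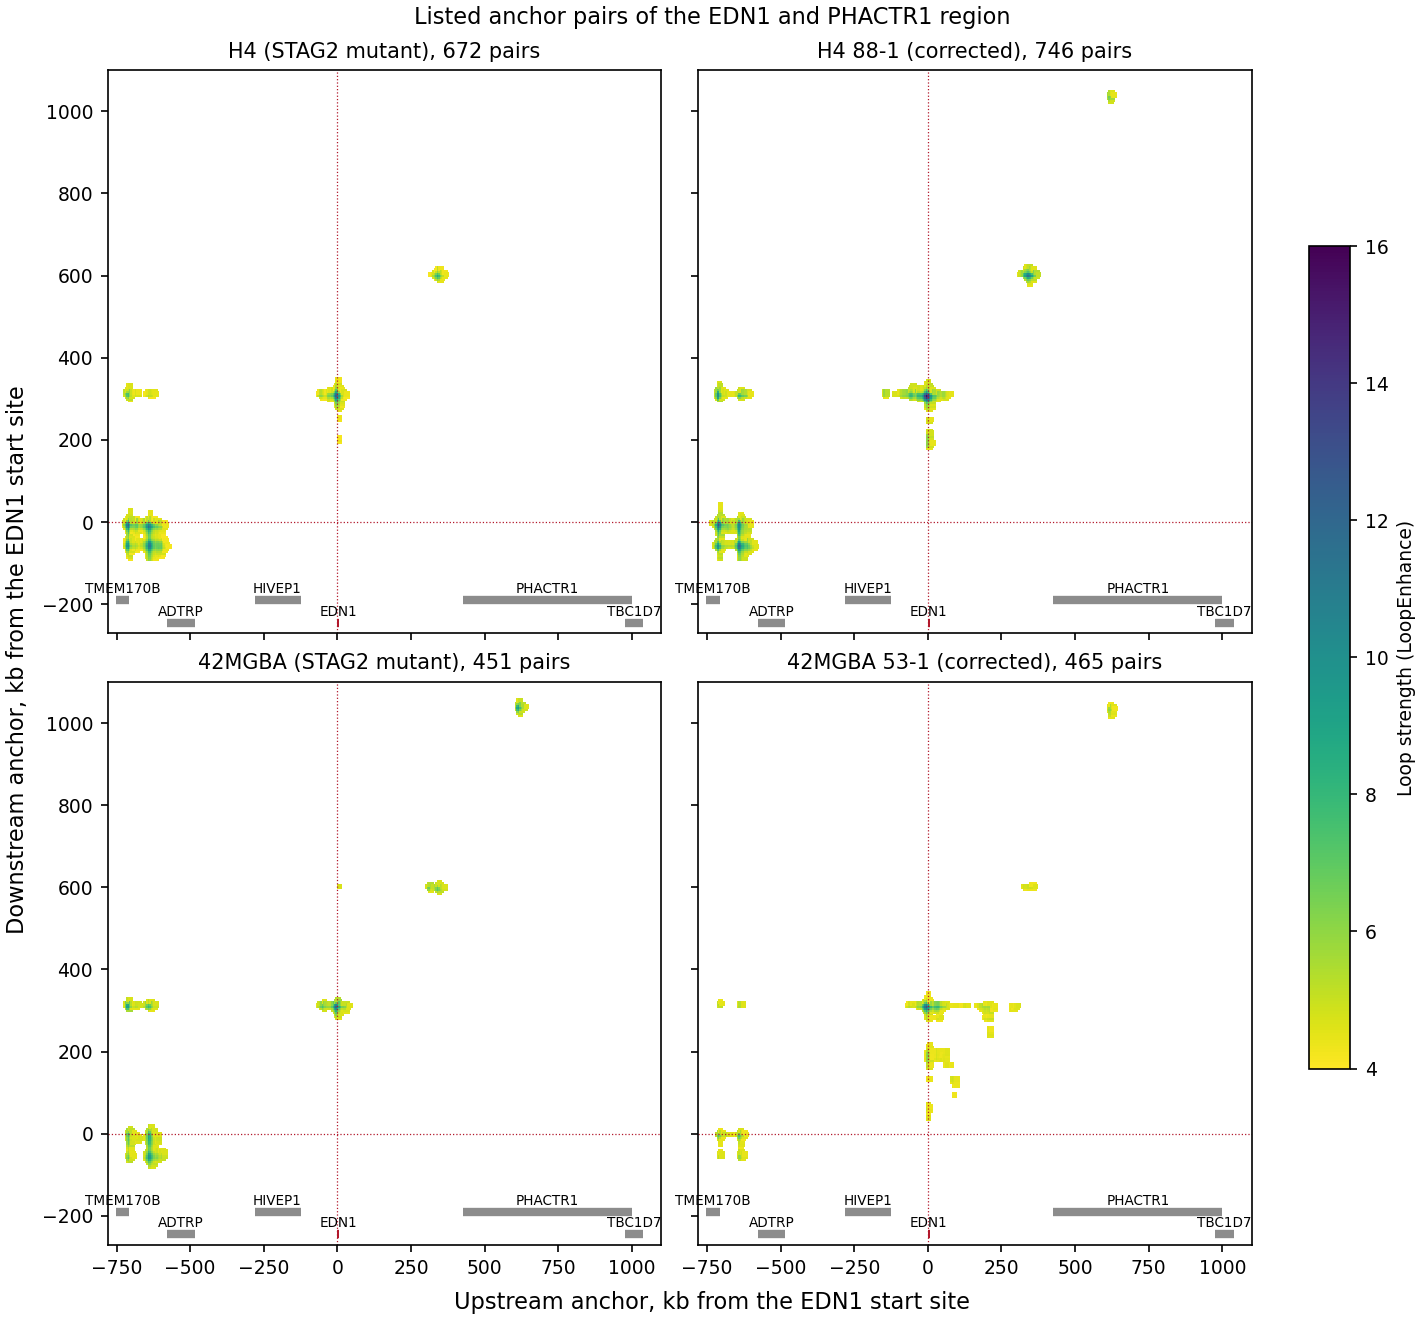
Listed anchor pairs of the region in each cell line, placed by the distance of the upstream anchor (x axis) and the downstream anchor (y axis) from the EDN1 start site in kb, coloured by loop strength; grey bars mark genes and dotted lines the EDN1 start site. The block at the EDN1 start site and 312 kb is present in all 4 panels, and short pairs near the diagonal appear only in 42MGBA 53-1.

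The map has few recurring anchors. Upstream are an anchor 703 kb before the EDN1 start site, just past the 3′ end of TMEM170B, and an anchor 635 kb before it. Around EDN1 are anchors about 50 kb upstream and the promoter itself. Downstream are an intergenic anchor at 312 kb, chr6:12600575-12605104, and anchors in intron 4 of PHACTR1 at 602 and 622 kb. These were joined in a grid, and the strengths of the shared peaks follow.

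**Figure D2:**
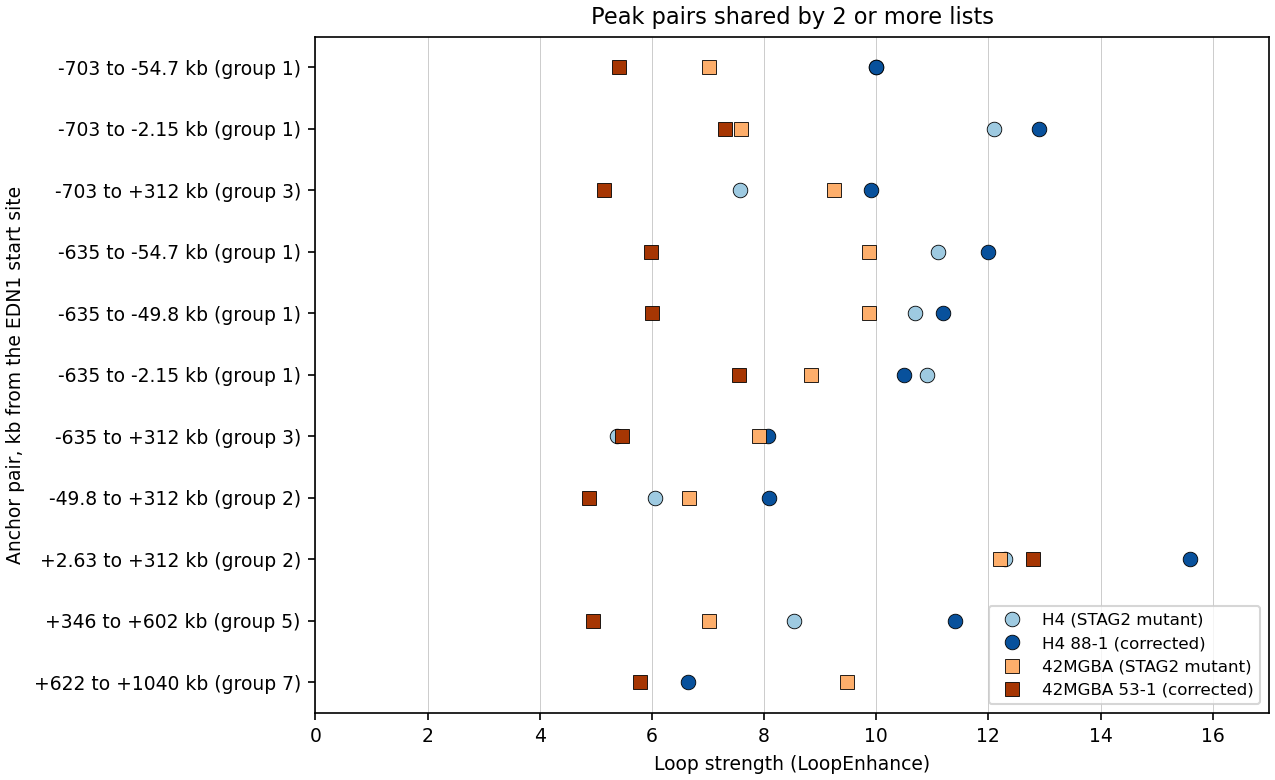
Loop strength (x axis, no unit) of the pairs that were peaks in at least 2 lists, with the distance of both anchors from the EDN1 start site in kb (y axis). Each symbol is 1 pooled list, circles for H4 lines and squares for 42MGBA lines; the pair from 2.63 to 312 kb is the strongest in every line.

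The strongest pair of the whole region was the same in all 4 lists. It joined chr6:12290848-12295606, which starts 254 bases past the EDN1 start site, to the intergenic anchor chr6:12600575-12605104, 310 kb away. Its strength was 12.3 for H4 and 15.6 for H4 88-1, against 12.2 for 42MGBA and 12.8 for 42MGBA 53-1, so that H4 88-1 stood above the other lines, which lay close together. It ranked 4804, 1450, 6484 and 3007 in the respective lists of 300000. The pair was stronger in both STAG2-corrected lines than in their parents, by 0.35 on the log2 scale for H4 88-1 and 0.08 for 42MGBA 53-1, and neither difference was called.

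The intergenic anchor at 312 kb was the best connected of the region when partners were summed over the lists, with 39 partners for H4 and 66 for H4 88-1, against 45 for 42MGBA and 67 for 42MGBA 53-1. Reading its strengths along the chromosome gives a profile with its summit at EDN1 in every line. In H4 the strength was 7.72 at 7.01 kb before the start site, 9.69 at the anchor that holds the start site, 12.3 at the next anchor, 12 at 7.46 kb and 5.6 at 22.2 kb. In H4 88-1 the same positions gave 10.5, 13.5, 15.6, 14.2 and 7.91. In 42MGBA they gave 8.28, 10.5, 12.2, 10.8 and 6.39, and in 42MGBA 53-1 they gave 9.35, 11.4, 12.8, 10.8 and 6.96. The summit thus stayed within the gene in all 4 lists, and the H4 88-1 profile lay above the H4 profile at each of these positions.

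**Figure D3:**
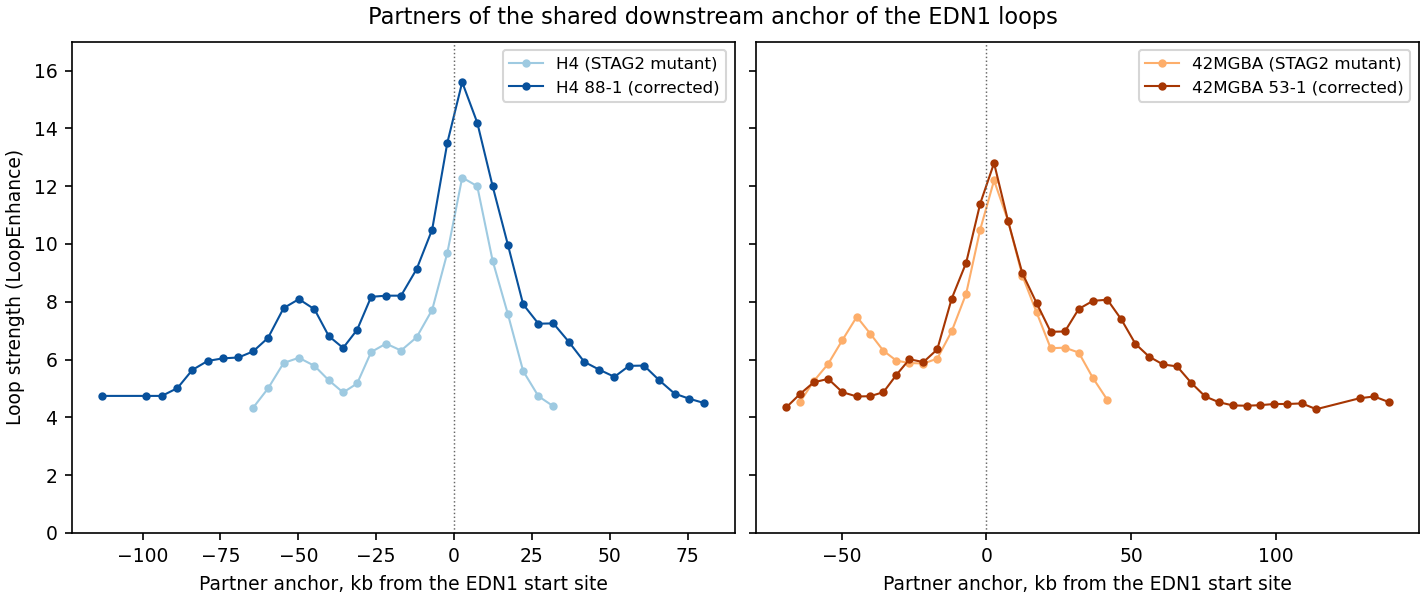
Loop strength (y axis, no unit) between the intergenic anchor 312 kb downstream of EDN1 and its partner anchors by their distance from the EDN1 start site in kb (x axis), for the H4 lines (left) and the 42MGBA lines (right); each point is 1 anchor of 1 pooled list and unlisted anchors have no point. All profiles have their summit at 2.63 kb. The strongest other peak shown lies 44.8 kb upstream in 42MGBA and 41.8 kb downstream in 42MGBA 53-1, which also has a weaker peak 54.7 kb upstream.

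Beside the summit the lines differed. The profile had a second peak about 50 kb upstream of EDN1, at or within 10 kb of the anchor with the minus-strand CTCF core. At 44.8 kb upstream the strength was 5.78 in H4 and 7.74 in H4 88-1, but 7.48 in 42MGBA and 4.72 in 42MGBA 53-1. On the other side, 41.8 kb downstream of the start site, the pair was not listed for H4 and 5.92 for H4 88-1, against 4.6 for 42MGBA and 8.07 for 42MGBA 53-1. The 42MGBA pair therefore showed opposite differences at these flanks while its summit values were 12.2 and 12.8.

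An anchor counts as an EDN1 promoter anchor when it lies within 3 kb of the start site, which holds for chr6:12286043-12290847 and chr6:12290848-12295606. They took part in 79 listed pairs for H4 and 90 for H4 88-1, against 44 for 42MGBA and 75 for 42MGBA 53-1, 111 distinct pairs in all. EDN1 was among the better connected promoters, since 410, 325, 1058 and 505 of 20163 protein-coding genes had more listed pairs in the respective lists.

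Upstream, the EDN1 promoter met the interval between TMEM170B and ADTRP, 586 to 732 kb away. Of 55 distinct pairs, 53 were listed for H4 and 51 for H4 88-1, against 26 for 42MGBA and 27 for 42MGBA 53-1. The promoter anchor with the start site and the anchor 703 kb upstream reached a strength of 12.1 for H4 and 12.9 for H4 88-1, against 7.59 for 42MGBA and 7.3 for 42MGBA 53-1. The same promoter anchor and the anchor 635 kb upstream reached 10.9, 10.5, 8.84 and 7.56. Both pairs were stronger in the H4 lines than in the 42MGBA lines, and within each pair of lines they differed by at most 0.23 on the log2 scale.

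Downstream, the promoter met the intergenic block around 312 kb in 26 pairs for H4 and 28 for H4 88-1, against 18 for 42MGBA and 25 for 42MGBA 53-1, of 29 in all. A further 17 pairs led to intergenic DNA 163 to 221 kb downstream. None of them was listed in H4 or 42MGBA, 9 were listed in H4 88-1 at strengths from 4.58 to 6.12, and 15 in 42MGBA 53-1 at strengths from 4.29 to 6.02. A last 7 pairs, with partners 36.8 to 70.8 kb downstream of the start site, were listed only in 42MGBA 53-1, at strengths from 4.29 to 4.9. These values lie near the lowest listed strengths, 4.28 for 42MGBA 53-1 and 4.49 for 42MGBA. Of the remaining 3 pairs, 2 were listed only in H4 88-1 and 1 only in 42MGBA 53-1. Over all its pairs, the EDN1 promoter had 16.8% listed only in H4 88-1 of those listed in either H4 line, and 44.3% only in 42MGBA 53-1 of those listed in either 42MGBA line. Among all pairs of the lists these shares were 22.4% and 24.2%, so that the H4 share was below that of all pairs and the 42MGBA share above it.

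Differences were read within the H4 pair of lines, H4 88-1 against H4, and within the 42MGBA pair of lines, 42MGBA 53-1 against 42MGBA. The 100000 strongest loops of both lines of a pair were merged, an unlisted loop was set to the lowest strength of its list, and the STAG2-corrected strength was regressed on the STAG2-mutant strength through the origin. A loop was called gained or lost on STAG2 correction when the z-score of its residual over all merged loops exceeded 1.96 in size, which ranks loops and is no test of replicates. Log2 ratios are STAG2-corrected over STAG2-mutant, and one in which a list lacks the loop is a lower bound on the size of the difference. Such a loop entered the merge through the other line, which fixed its direction. A loop merged through H4 88-1 alone could only be stronger there than in H4. Likewise, a loop merged through 42MGBA alone could only be weaker in 42MGBA 53-1. Across the genome 1.94% of 129476 merged loops were called gained and 2.17% lost on correction of H4, and for 42MGBA 1.61% of 131211 were called gained and 2.45% lost.

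In the H4 pair 340 region loops were merged, of which 3 were called gained, or 0.882%, and 0 lost, both shares below the genome's. On chromosome 6 outside the region 0.547% were gained and 2.23% lost. The median log2 ratio of the region loops was 0.10 against 0.07 for all merged loops. Among the 50 EDN1 promoter loops 2 were gained and 0 lost. For 42MGBA there were 178 merged region loops, of which 2 were gained, or 1.12%, and 6 lost, or 3.37%. The lost share was above the genome's, but on chromosome 6 outside the region 0.167% were gained and 6.37% lost. The median log2 ratio of the 178 region loops was -0.47, beside -0.11 for the genome and -0.36 for chromosome 6, which had the second lowest median of 23 chromosomes. Of the 30 EDN1 promoter loops merged in the 42MGBA pair none was called, and their z-scores ran from -1.06 to 1.16. The counts of calls changed with the settings, from 0 to 14 gained loops of the region in the H4 pair and from 0 to 36 lost loops in the 42MGBA pair, and the median of the latter pair was 0.14 over loops with both anchors inside the interval.

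**Figure D4:**
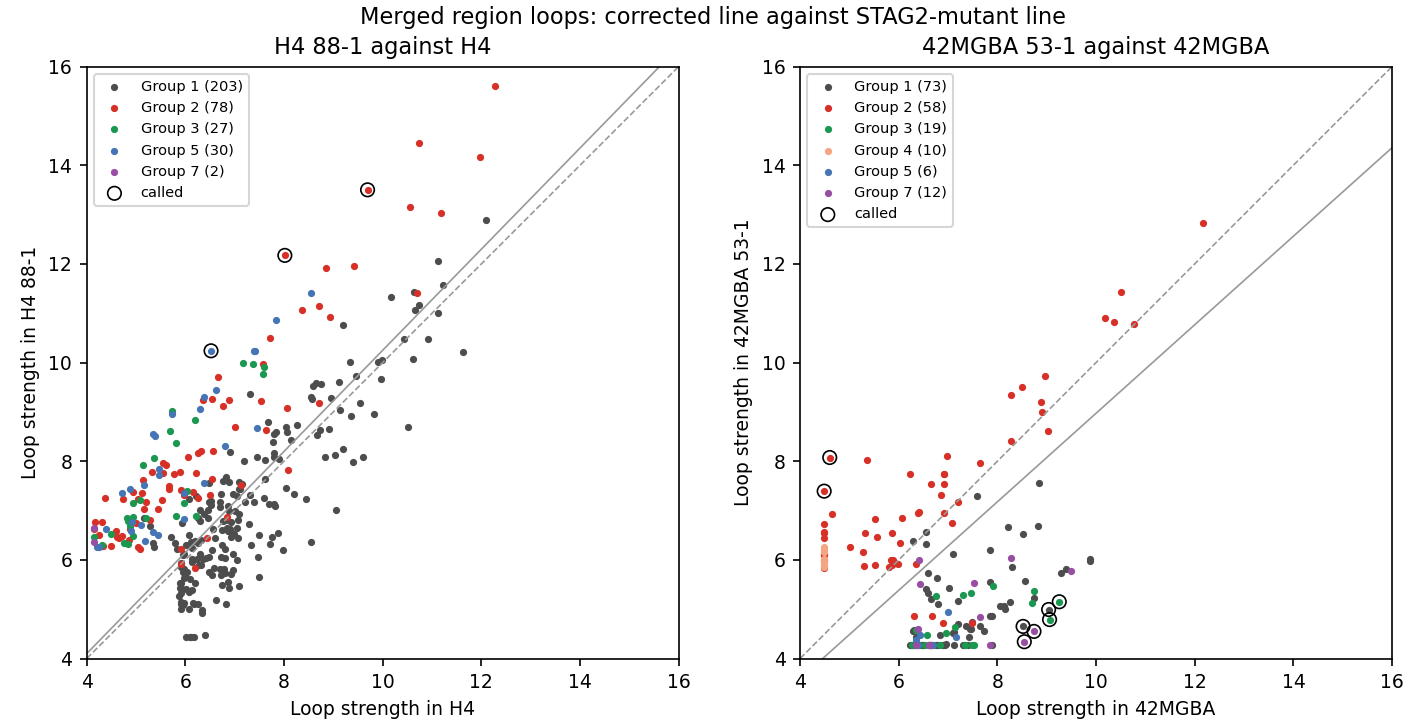
Strength of each merged region loop in the STAG2-corrected line (y axis) against the STAG2-mutant line (x axis), coloured by group with the number of loops in brackets; the dashed line is equality, the solid line the genome-wide regression, and open circles mark called loops. Groups 3, 5 and 7 lie above equality in the H4 pair and below it in the 42MGBA pair. Loops of groups 3 and 5, and all but 2 of group 7, entered the 42MGBA panel through 42MGBA alone, so that they could lie only below equality. In the H4 panel most loops of group 3, all but 13 of group 5 and both of group 7 could lie only above it.

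The EDN1 promoter loops differed between the upstream and the downstream side in these lists. Of the 50 EDN1 promoter loops merged in the H4 pair, 47 were among the 100000 strongest of H4, and the others could only be stronger in H4 88-1. Downstream, all 17 merged loops were stronger in H4 88-1 than in H4, with a median strength of 9.22 against 7.52 and a median log2 ratio of 0.29. All 18 downstream loops were also stronger in 42MGBA 53-1 than in 42MGBA, with a median of 7.13 against 6.88 and a median log2 ratio of 0.14, and 5 of these were unlisted in 42MGBA. Listed downstream pairs too weak to be merged went both ways. From chr6:12290848-12295606 to chr6:12571451-12576247 the strength was 5.52 in H4 and 5.97 in H4 88-1, but to chr6:12624549-12629555 it was 5.4 and 5.24. For 42MGBA and 42MGBA 53-1 it was 4.82 and 5.35 to chr6:12571451-12576247, but 6.04 and 5.79 to chr6:12581211-12586224. Upstream, 18 of 33 merged loops were stronger in H4 88-1, with a median log2 ratio of 0.05, but 13 of the 33 lay above the genome median of the pair, so that this direction also turns with the scaling. On correction of 42MGBA 2 of 12 upstream loops were stronger, and the median strength was 6.35 in 42MGBA 53-1 against 7.18 in 42MGBA, a median log2 ratio of -0.25. That upstream value lay below the genome median of the pair by 0.14 but above the chromosome 6 median by 0.11, so that its direction depends on the scaling. All 18 downstream loops lay above both medians, which the merge fixed for the 5 that were unlisted in 42MGBA. Of 25 EDN1 promoter loops merged in both pairs, 15 were stronger in both STAG2-corrected lines, 4 weaker in both, 6 stronger in H4 88-1 and weaker in 42MGBA 53-1, and 0 the reverse.

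Both gained EDN1 promoter loops of the H4 pair joined the anchor with the start site to the 312 kb block. The loop to chr6:12595633-12600574 was at 8.02 in H4 and 12.2 in H4 88-1, a 1.52-fold difference with a z-score of 2.22. The loop to chr6:12600575-12605104 was at 9.69 in H4 and 13.5 in H4 88-1, a 1.39-fold difference with a z-score of 1.99. The same loops had z-scores of 1.07 and 1.16 in the 42MGBA pair.

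The groups are taken next, from the upstream side to the downstream side. Group 1 held 469 pairs that joined chr6:11555680-11721216, between the 3′ part of TMEM170B and the 3′ part of ADTRP, to chr6:12199326-12334815 around EDN1, with a median size of 613 kb. It was listed in 452 pairs for H4 and 362 for H4 88-1, against 230 for 42MGBA and 76 for 42MGBA 53-1, so that 42MGBA 53-1 listed the fewest pairs of this block. The list of 42MGBA 53-1 as a whole also held fewer pairs of chromosome 6, 12663 against 18709 in 42MGBA, and fewer of 600 kb or more, 10.3% against 15%, and their part in this count was not tested. In the H4 pair 84 of 203 merged loops were stronger in H4 88-1, the median log2 ratio was -0.04 and no loop was called. In the 42MGBA pair 71 of 73 were weaker in 42MGBA 53-1, with a median of -0.63 beside -0.58 for chromosome 6 loops and -0.25 for all loops of that size range, and 60 of the 73 lay below the chromosome 6 median. Of the 73, 23 were unlisted in 42MGBA 53-1 and could only be weaker. The same holds for listed loops outside the 100000 strongest of 42MGBA 53-1, where a strength of 5.78 already ranked 101693. Most of the 73 were below that strength, so that the merge fixed most of this count. Over the region, 79 of the 178 merged loops were among the 100000 strongest of 42MGBA 53-1. The 2 called losses both ended at the anchor with the minus-strand CTCF core and had strengths of 9.04 and 8.52 in 42MGBA against 4.99 and 4.65 in 42MGBA 53-1.

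Within group 1 the 42MGBA lines differed more in the peak near the CTCF core than in the peak at EDN1. The pair from 635 kb to 54.7 kb upstream had a strength of 11.1 for H4 and 12 for H4 88-1, against 9.87 for 42MGBA and 5.98 for 42MGBA 53-1, a log2 ratio of -0.72 in the latter pair. The pair from the same upstream anchor to the EDN1 promoter had a log2 ratio of -0.23 there.

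Group 2 was the block of the strongest pair, 229 pairs that joined chr6:12175287-12431308 to chr6:12561666-12639423, which also holds the non-coding gene LINC02530. It was listed in 123 pairs for H4 and 195 for H4 88-1, against 96 for 42MGBA and 148 for 42MGBA 53-1. In the H4 pair 76 of 78 merged loops were stronger in H4 88-1, with a median log2 ratio of 0.40 beside 0.09 for all loops of that size range. In the 42MGBA pair 47 of 58 were stronger in 42MGBA 53-1, with a median of 0.12, while loops of that size range had a median of -0.10 over the genome and -0.36 on chromosome 6, and 53 of the 58 lay above either median. Of the 58, 9 were unlisted in 42MGBA and could only be stronger, and 1 was unlisted in 42MGBA 53-1 and could only be weaker. Of 46 loops merged in both pairs, 35 were stronger in both STAG2-corrected lines, a count under the same limits. The 2 loops gained in the 42MGBA pair joined 41.8 and 46.6 kb downstream of the EDN1 start site to the intergenic anchor, at 8.07 against 4.6 and 7.39 against unlisted.

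Group 3 spanned both neighbouring blocks. Its 82 pairs joined chr6:11570097-11692263 directly to chr6:12586225-12629555, passing over EDN1, with a median size of 991 kb, and were listed in 51 cases for H4 and 74 for H4 88-1, against 60 for 42MGBA and 14 for 42MGBA 53-1. The pair between the anchors 703 kb upstream and 312 kb downstream had a strength of 7.58 for H4 and 9.91 for H4 88-1, against 9.25 for 42MGBA and 5.15 for 42MGBA 53-1. All 27 merged loops were stronger in H4 88-1 than in H4, with a median log2 ratio of 0.48, where all loops of that size range had a median of -0.23. Most of the 27 were merged through H4 88-1 alone and could only be stronger there, so that the merge fixed most of this count. All 19 merged loops were weaker in 42MGBA 53-1 than in 42MGBA, with a median of -0.62, equal to that of chromosome 6 loops of that size range, and 2 of them were called lost. All 19 also lay below the chromosome 6 median of -0.36. The best rank of this group in 42MGBA 53-1 was 124753, so that all 19 were merged through 42MGBA alone and could only be weaker. Of the 19, 7 were unlisted in 42MGBA 53-1.

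**Figure D5:**
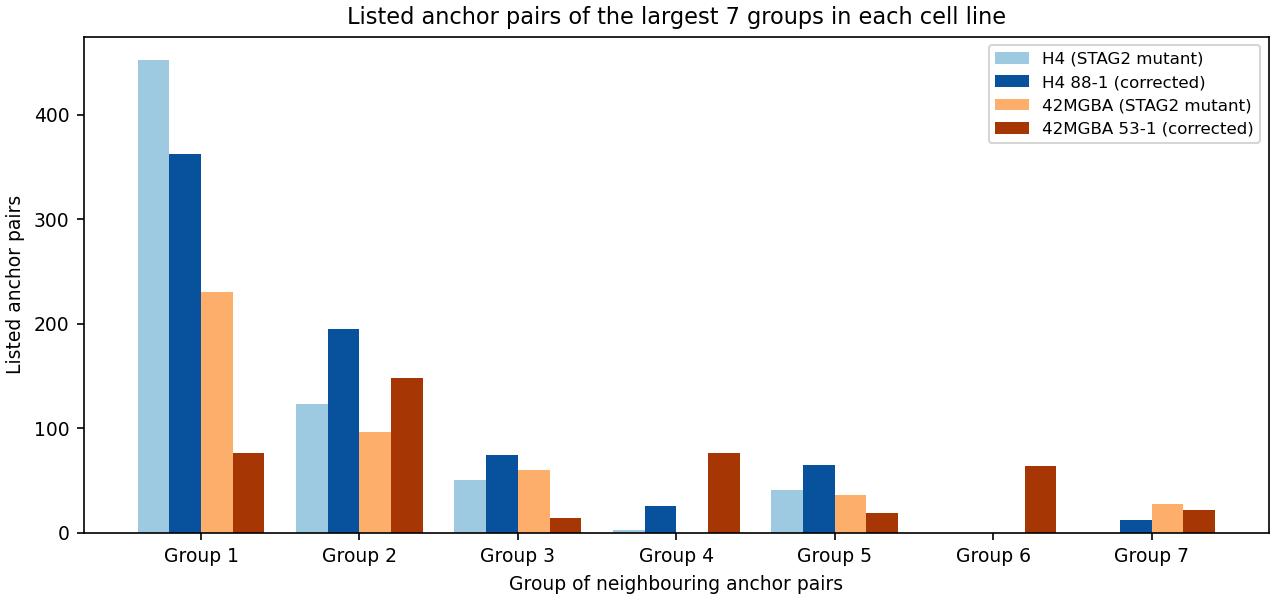
Number of listed anchor pairs (y axis) in each of the largest 7 groups (x axis) by cell line, 1 bar per pooled list. Group 1 has 452 pairs in H4 and 76 in 42MGBA 53-1, group 6 has a bar only in 42MGBA 53-1, and group 7 has none in H4.

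Group 4 was intergenic on its downstream side and led from chr6:12286043-12373334 to chr6:12450919-12513810. It was listed in 3 pairs for H4 and 26 for H4 88-1, against 0 for 42MGBA and 76 for 42MGBA 53-1. Its 10 merged loops in the 42MGBA pair were all unlisted in 42MGBA, their strength in 42MGBA 53-1 corresponded to a log2 ratio of at least 0.39, and none was called. Group 6, with 64 pairs between chr6:12455824-12523371 and chr6:12566495-12610099 and strengths up to 5.72, was listed only in 42MGBA 53-1.

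Groups 8 to 11, 14 and 16 were likewise listed only in 42MGBA 53-1, with strengths up to 4.92, near the lowest listed strength of 4.49 in 42MGBA. Group 12 was listed only in H4 88-1, with 7 pairs that led from HIVEP1, which encodes a zinc finger transcription factor, to the intergenic block at 312 kb at strengths up to 5.84. Group 13 held 6 pairs from EDN1 to DNA about 245 kb downstream, 2 listed in H4 and 5 in H4 88-1. Of the 465 members in 42MGBA 53-1, 81 were shorter than 100 kb, against 0 in each of the other lists. This followed the list as a whole in direction, since 12.4% of all pairs of 42MGBA 53-1 were shorter than 100 kb against 8.11% in 42MGBA, 5.93% in H4 and 5.91% in H4 88-1. The part of that shift in the region's short pairs was not tested.

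No listed pair had an anchor at a PHACTR1 promoter. None of its 26 start sites lay within 3 kb, or within 10 kb, of an anchor of any listed pair, and the distance from a start site to the nearest listed anchor ran from 23.3 to 144 kb. Between 33.9% and 37.2% of protein-coding genes had a listed pair at a start site in a given list. No listed pair joined an EDN1 promoter anchor to any part of the PHACTR1 gene either. The nearest was a single pair of 42MGBA, from chr6:12295607-12300493, the anchor next to the promoter anchors that holds the end of EDN1, to chr6:12890444-12895396 in intron 4 of PHACTR1, 595 kb away. Its strength of 4.72 ranked 255011 of 300000, and it was not listed in the other 3 lines. The lists hold only the strongest pairs, so that weaker contacts are not detectable in them.

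The PHACTR1 gene body took part through intron 4 alone, between 12866087 and 12934264. It held an anchor of 41 listed pairs for H4 and 77 for H4 88-1, against 65 for 42MGBA and 41 for 42MGBA 53-1, 108 distinct pairs in all. These fell into group 5, which led back towards EDN1 but ended short of it, into group 7, which led on to the TBC1D7 promoter, and the single pair above.

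Group 5 joined chr6:12595633-12667895, which overlaps the downstream end of the EDN1 block, to chr6:12866087-12914650 in 72 pairs, of which 41 were listed for H4 and 65 for H4 88-1, against 36 for 42MGBA and 19 for 42MGBA 53-1. The pair between the anchors at 346 and 602 kb had a strength of 8.54 for H4 and 11.4 for H4 88-1, against 7.01 for 42MGBA and 4.95 for 42MGBA 53-1. H4 88-1 was highest and 42MGBA 53-1 lowest, so that the STAG2-corrected lines lay at opposite ends. All 30 merged loops were stronger in H4 88-1, with a median log2 ratio of 0.48 beside 0.14 for loops of that size range. One of them, from chr6:12644283-12648984 to chr6:12890444-12895396, was called gained, at 6.52 against 10.2. Of the 30, 13 were among the 100000 strongest of H4, and the others could only be stronger in H4 88-1. All 6 merged loops were weaker in 42MGBA 53-1, with a median of -0.56 beside -0.32 for chromosome 6 loops of that size range, all 6 lay below the chromosome 6 median, and none was called. The best rank of this group in 42MGBA 53-1 was 179709, so that all 6 were merged through 42MGBA alone and could only be weaker. Of the 6, 2 were unlisted in 42MGBA 53-1.

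Group 7 joined chr6:12900022-12934264 to chr6:13304119-13347918, which holds start sites of TBC1D7, a subunit of the TSC complex that restrains the growth regulator mTORC1. Of its 35 pairs 0 were listed for H4 and 12 for H4 88-1, against 28 for 42MGBA and 22 for 42MGBA 53-1. Its strongest pair, 418 kb in size and ending at the TBC1D7 anchor with a CTCF core, was unlisted in H4 and had a strength of 6.64 in H4 88-1, 9.48 in 42MGBA and 5.78 in 42MGBA 53-1. The 2 merged loops of the H4 pair were both stronger in H4 88-1, but both were unlisted in H4 and could only be stronger. All 12 merged loops of the 42MGBA pair were weaker in 42MGBA 53-1, with a median log2 ratio of -0.60, beside -0.50 for chromosome 6 and -0.16 for all loops of that size range. Of the 12, 3 were unlisted in 42MGBA 53-1 and 2 were among its 100000 strongest. All but these 2 were merged through 42MGBA alone and could only be weaker. Relative to the chromosome 6 median 10 of the 12 were weaker, and 2 were called lost, at 8.55 against 4.34 and 8.74 against 4.55.

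Across the gene body of PHACTR1, 32 of 32 merged loops were stronger in H4 88-1 than in H4, with a median log2 ratio of 0.51. Of the 32, 13 were among the 100000 strongest of H4, and the others could only be stronger in H4 88-1. In the 42MGBA pair 0 of 18 were stronger in 42MGBA 53-1, with a median of -0.57, and 16 lay below the chromosome 6 median. Of the 18, 2 were among the 100000 strongest of 42MGBA 53-1, and the others could only be weaker there. The whole neighbourhood shared the sign in the 42MGBA pair, since 442 of 472 merged loops of chromosome 6 outside the region but within 5 Mb of it were weaker there, with a median of -0.45. In the H4 pair 364 of 586 such loops were stronger, with a median of 0.11. Against this neighbourhood the 18 downstream EDN1 promoter loops, all stronger in 42MGBA 53-1, had the opposite sign, which the merge fixed for the 5 unlisted in 42MGBA.

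Of all 1093 members, 179 were listed in all 4 lines, or 16.4%, against 19.3% of all pairs. Another 196, or 17.9%, were listed in every line but 42MGBA 53-1, against 4.48% of all pairs, and their median size was 600 kb. A further 203, or 18.6%, were listed only in 42MGBA 53-1, against 12.3% of all pairs, and their median size was 116 kb. No member was shared by H4 and 42MGBA 53-1 without H4 88-1. Among all pairs 0.845% were listed in H4 and 42MGBA 53-1 alone, and 2.36% in these lines and 42MGBA.

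Within the H4 pair 860 members were listed in either line, of which 188, or 21.9%, were listed only in H4 88-1 and 114, or 13.3%, only in H4, where each direction held 22.4% of all pairs. Within the 42MGBA pair 714 were listed in either line, of which 263, or 36.8%, were listed only in 42MGBA 53-1 and 249, or 34.9%, only in 42MGBA, where each direction held 24.2% of all pairs. For the EDN1 promoter alone, 16 of 95 pairs were listed only in H4 88-1 and 5 only in H4, and 35 of 79 only in 42MGBA 53-1 and 4 only in 42MGBA.

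Among the other genes of the endothelin pathway, EDN2, EDN3 and the receptor gene EDNRB had no listed pair at a start site in any line, and the receptor gene EDNRA had 2 in H4 88-1 alone. ECE1 had 61 for H4 and 83 for H4 88-1, against 84 for 42MGBA and 106 for 42MGBA 53-1. Of its 54 merged loops in the H4 pair 4 were called gained and 0 lost, with a median log2 ratio of 0.34, and of 62 in the 42MGBA pair 2 were gained and 0 lost, with a median of 0.05. ECE2 had 7 listed pairs in H4, 10 in H4 88-1 and none in the 42MGBA lines. Of the family of PHACTR1, PHACTR2 had none, PHACTR3 had 9 in H4 88-1 alone, and PHACTR4 had 8 for H4 and 2 for H4 88-1, against 6 for 42MGBA and 3 for 42MGBA 53-1.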

How the data were processed

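Hi-C reads from 2 replicates per cell line were trimmed by the authors, aligned to hg19 with bowtie, assigned to 5 kb anchor pairs, corrected with HiCorr and enhanced with LoopEnhance of DeepLoop. The authors pooled the replicates and deposited, for each line, the 300000 strongest pairs with their signal (loop strength). Read counts per pair are not given, so that counting error and depth per pair are unknown. Lists were assigned to lines through the labels, which give the parental lines as STAG2-mutant. Merging the top 100000 loops and the two-sided 0.05 cutoff on a z-score follow the study's methods, and the regression through the origin was chosen here. A start site was matched within 3 kb, from GENCODE release 44 on hg19, and sequence was read from GRCh37. Loop sizes were measured from midpoint to midpoint.

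The interval, the genes, the gene lists and the rule for named pairs were chosen with earlier results of these data known. The rule names EDN1, PHACTR1, the genes at region anchors, the strongest pair of each large group, every called loop, the best connected anchors, the endothelin pathway and the PHACTR family. Peaks, and the split of EDN1 promoter loops by side, were added after values were seen. Alternatives changed the regression, scale, cutoff, absent loops, number merged, scaling and distance to a start site. The calling was tested on simulated data. The 12 RNA-seq samples were not analysed here. Scripts ran in Python 3.11.15 (numpy 2.4.6, pandas 2.3.3, matplotlib 3.10.9).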

Additional observations from a re-analysis of the deposited data

Results flagged for a closer look

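Groups 3, 5 and 7 stood out because every merged loop was stronger in H4 88-1 than in H4 and every merged loop was weaker in 42MGBA 53-1 than in 42MGBA. The merge fixed much of this pattern. All loops of groups 3 and 5 and all but 2 of group 7 entered through 42MGBA alone and could only be weaker. In the H4 pair most loops of group 3, all but 13 of group 5 and both of group 7 could only be stronger. The difference between the comparisons was not tested, since each line has 1 pooled list and neighbouring loops are not independent. In group 3, which joins the TMEM170B to ADTRP interval to the intergenic block past EDN1, the median log2 ratio was 0.48 over 27 loops on correction of H4 and -0.62 over 19 loops on correction of 42MGBA. In group 5, between that intergenic block and intron 4 of PHACTR1, it was 0.48 over 30 loops and -0.56 over 6 loops. In group 7, between intron 4 of PHACTR1 and the TBC1D7 promoter, it was 0.65 over 2 loops, both unlisted in H4, and -0.60 over 12 loops. Beside these values, merged loops of chromosome 6 as a whole had a median of 0.03 for H4 and -0.36 for 42MGBA. Relative to the latter, all loops of groups 3 and 5 and 10 of the 12 of group 7 lay below. Chromosome 6 loops of the same size range had medians of -0.62 for group 3, -0.32 for group 5 and -0.50 for group 7 in the 42MGBA lines, and 0%, 12.3% and 8.7% of them were stronger in 42MGBA 53-1, so that the weaker values of groups 3 and 7 were close to those of such loops. In the H4 lines the medians of the same size range were -0.42, 0.04 and 0.05, of which the first is opposite in sign to group 3.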

How the results depend on the processing

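Of 64 alternative values, 39 stayed within 1.5 times the count or within the SD of the chromosome medians, which was 0.11 for H4 and 0.14 for 42MGBA on the log2 scale. For loops gained in the H4 pair, 3 in the report, the count was 8 with an intercept in the regression, 0 with the log2 ratio, 0 at a two-sided cutoff of 0.01, 10 with 200000 loops merged, 0 with 50000 and 14 among loops of similar size. Loops lost, 0 in the report, numbered 4 with absent loops set to 0. In the 42MGBA pair, loops gained, 2 in the report, numbered 1 with an intercept, 0 at 0.01, 19 with absent loops at 0, 5 with 200000 merged, 1 with 50000 and 22 with the log2 ratio on chromosome 6 alone. Loops lost, 6 in the report, numbered 0 at 0.01, 36 with absent loops at 0, 25 with 200000 merged, 0 with 50000, 0 on chromosome 6 alone, 2 among loops of similar size and 0 with both anchors inside the interval, a setting that leaves out groups 1, 3 and 7 by construction. The counts of calls thus depend on these settings, and the cause was not tested for the others. The median log2 ratio of region loops in the H4 pair was 0.43 with both anchors inside. In the 42MGBA pair it was -0.30 with 200000 merged and -0.11 after scaling to chromosome 6, and it turned to 0.14 with both anchors inside, which leaves groups 2, 4 and 5. The median of EDN1 promoter loops in that pair was 0.41 after scaling to chromosome 6, against 0.05. PHACTR1 promoter loops and loops from EDN1 to PHACTR1 had no member under any setting and so no value. No paired analysis was possible because the replicates of a line are pooled in 1 list, and no replicate could be left out.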
